A study of Homo sapiens with 9 samples.

Results

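The genes described here are 10 members of the E2F network that sets entry into S phase, out of 57163 genes in the count table. They are 7 E2F transcription factor genes (E2F1, E2F2, E2F3, E2F5, E2F6, E2F7 and E2F8), the genes of the E-type cyclins (CCNE1 and CCNE2) and RBL1, the gene of the pocket protein p107. They were chosen by name, with earlier results of these data known. Each was found once when the gene identifiers of the table, without their version, were matched to GENCODE symbols. All 10 had counts in all 9 libraries.

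RNA was sequenced from a human embryonic kidney line, 293T, taken 48 h after transfection of a vector that expressed the coding sequence of a TF from an EF1A promoter, with EGFP on the same plasmid. The TFs were chosen in the study to compare conserved lncRNA–binding TFs (CLB_TFs: NRF1, E2F4, EGR1 and ZBTB7A) with control TFs (HOXA11, RORA, TFCP2 and NKX2-8). The control library received a plasmid with no TF by the methods, while the sample labels call it blank. Each of the 8 TFs and the control had 1 library, so no difference from the control library had a replicate check. All libraries came from the same line, a transformed line that carries the large T antigen of SV40. In bulk RNA, more RNA per cell and more cells that express a gene cannot be told apart.

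E2F proteins bind DNA at the promoters of cell cycle genes, most of them as dimers with a DP protein. E2F1, E2F2 and E2F3 are activators that are held by the retinoblastoma protein until cyclin-dependent kinases phosphorylate it. E2F4 and E2F5 act mainly with the pocket proteins p107 and p130 to repress cell cycle genes in resting cells. E2F6 represses without pocket proteins, in a Polycomb complex, and E2F7 and E2F8 are atypical E2Fs that bind DNA without a DP partner and repress E2F targets. Cyclin E activates CDK2 at the start of S phase. CCNE1, CCNE2, E2F1, E2F7, E2F8 and RBL1 are themselves known as E2F targets, so the network feeds back on itself. Large T antigen binds pocket proteins and frees E2F from them.

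E2F7, CCNE2 and CCNE1 rose at least 2-fold in the E2F4 library, and no other of the 10 genes changed 2-fold in any TF library. E2F7 had 1916 counts, or 107 CPM (the count scaled to the size of the library), in the E2F4 library and 611 counts, or 33.2 CPM, in the control library. CCNE2 had 997 counts (55.8 CPM) in the E2F4 library against 428 counts (23.3 CPM) in the control library, and CCNE1 had 1182 counts (66.2 CPM) against 593 counts (32.2 CPM). The activator genes E2F1, E2F2 and E2F3, and RBL1, had ratios of 0.969 to 1.05 to the control library there. The inserted E2F4 had 69762 counts in its own library, 911 to 1279 in the other TF libraries and 1333 in the control library.

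Promoter sequences are printed for a pair of genes that rose in the E2F4 library, E2F7 and CCNE1, and for a pair that did not, E2F1 and RBL1. They are RefSeq windows of GRCh38.p14 from 250 bases before to 50 bases after the gene start, on the strand of the gene, and 7 of the 10 genes had a window that was used. Positions of genes in the rest of the text are on GRCh37. The E2F site was searched as the 8-letter words TTTCCCGC, TTTGGCGC, TTTCGCGC and TTTGCCGC on both strands. Capitals mark these words in E2F1 and RBL1, and in E2F7 the same words without their base at the 5′ end, a 7-letter form that every 8-letter word contains and that was chosen after the 8-letter search. The windows are chr12:77065520-77065819 on the minus strand for E2F7, chr19:29811741-29812040 on the plus strand for CCNE1, chr20:33686336-33686635 on the minus strand for E2F1 and chr20:37095948-37096247 on the minus strand for RBL1.
E2F7: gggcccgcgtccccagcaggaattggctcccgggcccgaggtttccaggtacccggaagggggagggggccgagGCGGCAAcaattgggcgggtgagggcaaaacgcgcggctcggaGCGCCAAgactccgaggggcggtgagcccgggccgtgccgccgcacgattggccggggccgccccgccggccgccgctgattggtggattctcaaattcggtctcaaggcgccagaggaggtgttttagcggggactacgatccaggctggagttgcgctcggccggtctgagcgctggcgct
CCNE1: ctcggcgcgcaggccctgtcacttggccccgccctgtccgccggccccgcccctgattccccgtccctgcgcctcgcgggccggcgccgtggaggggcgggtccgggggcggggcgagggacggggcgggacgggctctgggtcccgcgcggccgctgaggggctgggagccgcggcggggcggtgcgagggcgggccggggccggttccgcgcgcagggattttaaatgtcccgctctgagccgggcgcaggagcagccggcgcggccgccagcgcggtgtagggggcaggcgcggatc
E2F1: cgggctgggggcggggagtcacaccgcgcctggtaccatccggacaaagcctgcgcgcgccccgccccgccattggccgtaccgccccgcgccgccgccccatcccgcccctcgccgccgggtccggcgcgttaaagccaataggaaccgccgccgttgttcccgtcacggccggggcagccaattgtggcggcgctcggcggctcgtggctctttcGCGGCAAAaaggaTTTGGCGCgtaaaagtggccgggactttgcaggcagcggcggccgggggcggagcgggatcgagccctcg
RBL1: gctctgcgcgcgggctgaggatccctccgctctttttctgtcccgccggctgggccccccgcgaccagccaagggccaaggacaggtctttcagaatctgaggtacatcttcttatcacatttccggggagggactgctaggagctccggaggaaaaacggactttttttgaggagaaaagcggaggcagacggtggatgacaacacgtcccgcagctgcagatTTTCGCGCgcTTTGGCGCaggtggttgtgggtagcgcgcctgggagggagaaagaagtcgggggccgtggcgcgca

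The 8-letter site was in the windows of E2F1, E2F2, E2F3 and RBL1, all with ratios of 0.969 to 1.05 in the E2F4 library. It was not in those of E2F7, CCNE1 and E2F6, and E2F6 had a ratio of 0.930 in the E2F4 library. CCNE2, which also rose, had no window among those used. The E2F1 window held TTTGCCGC on the other strand, 33 bases before the start, and TTTGGCGC 20 bases before it. RBL1 had TTTCGCGC 26 bases and TTTGGCGC 16 bases before the start. The E2F2 window had TTTGGCGC 42 bases before the start, and 1 of the 2 E2F3 windows had TTTCCCGC on the other strand 53 bases before it. Of 35116 windows of all genes, 3.31% had an 8-letter site and 13% the 7-letter form, which E2F7 held on the other strand 176 bases (TTGCCGC) and 133 bases (TTGGCGC) before the start. The 7-letter form was in 6 of the 7 genes, with E2F6 holding it 14 bases after the start on the other strand. CCNE1 had neither form in this window, which says only that these letters are not in it. A match is a description of the sequence and not a measured binding site.

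The core of the NRF1 motif, GCATGCGC, was in 3.05% of all windows. E2F6 held it 18 bases before the start and, on the other strand, 8 bases after the start, and no other of the windows had it. E2F6 had 534 counts (33.7 CPM) in the NRF1 library against 592 counts (32.2 CPM) in the control library, a ratio of 1.05 with a 95% interval of 0.929 to 1.18. The EGR1 core was searched as GCGGGGGC and GCGTGGGC, which together were in 10.4% of windows. It was found only in the other E2F3 window, 154 bases before the start, and E2F3 had a ratio of 1.05 (0.978 to 1.14) in the EGR1 library.

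**Figure D1:**
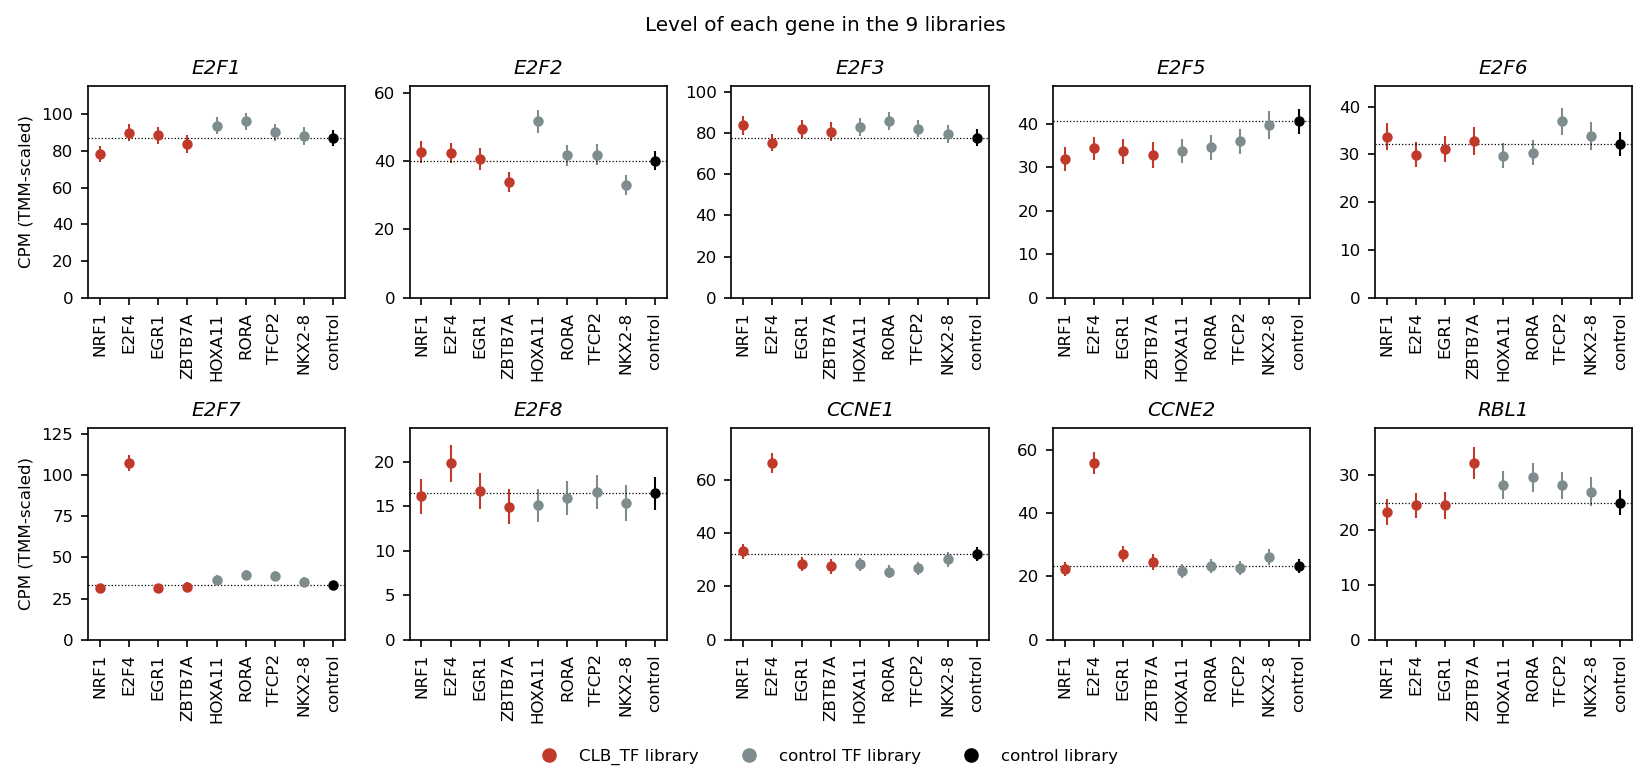
Level of each of the 10 genes in CPM (y axis, from 0) in the 9 libraries (x axis), with CLB_TF libraries in red, control TF libraries in grey and the control library in black. Bars are 95% Poisson intervals by the normal approximation and cover counting error only, and the dotted line is the level in the control library. The E2F4 library stands apart for E2F7 (107 CPM), CCNE1 (66.2 CPM) and CCNE2 (55.8 CPM).

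E2F7 lies on the minus strand of chromosome 12 (77415027 to 77459360). It had 31.2 CPM with NRF1, 107 with E2F4, 31.2 with EGR1, 32.1 with ZBTB7A, 36.5 with HOXA11, 39.1 with RORA, 38.5 with TFCP2, 35.0 with NKX2-8 and 33.2 in the control library. The E2F4 library did not overlap the other 8, which lay close together. The ratio to the control library was 3.23 in the E2F4 library, with an exact binomial 95% interval of 2.95 to 3.54 that covers counting error only, or 1.69 as a log2 fold change. The RORA and TFCP2 libraries had the next highest ratios, 1.18 (1.05 to 1.32) and 1.16 (1.04 to 1.3). Against the mean of the 8 other libraries, 34.6 ± 3.17 CPM (SD, n = 8), the E2F4 library was 3.1-fold higher.

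E2F8, the other atypical repressor, lies on the minus strand of chromosome 11 (19245610 to 19263167) and was the lowest of the 10 genes. It had 16.1 CPM with NRF1, 19.9 with E2F4, 16.7 with EGR1, 15.0 with ZBTB7A, 15.2 with HOXA11, 15.9 with RORA, 16.6 with TFCP2, 15.4 with NKX2-8 and 16.5 in the control library. Its level was again highest in the E2F4 library, with 355 counts against 303 in the control library. The ratio was 1.21 (1.03 to 1.41), under 2-fold and smaller than that of E2F7, whose interval did not overlap it. E2F8 lies within the antisense gene CSRP3-AS1, which had only 1 to 6 counts in any library.

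CCNE1, an E-type cyclin gene, lies on the plus strand of chromosome 19 (30302805 to 30315215). It had 33.2 CPM with NRF1, 66.2 with E2F4, 28.3 with EGR1, 27.4 with ZBTB7A, 28.2 with HOXA11, 25.6 with RORA, 26.8 with TFCP2, 30.2 with NKX2-8 and 32.2 in the control library. The E2F4 library was above all others. Its ratio of 2.05 (1.86 to 2.27) was just over the 2-fold threshold, and the interval reached below it. In 5 of the other libraries the interval lay below 1, and the lowest ratio was 0.793 (0.698 to 0.899) in the RORA library. The control library was the third highest of the 9, and against the mean of the control TF libraries the ratio with EGR1 was 1.02. Against the mean of the 8 other libraries, 29.0 ± 2.66 CPM (SD, n = 8), the E2F4 library was 2.28-fold higher.

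CCNE2, the other E-type cyclin gene, lies on the minus strand of chromosome 8 (95891998 to 95908906). It had 22.4 CPM with NRF1, 55.8 with E2F4, 27.1 with EGR1, 24.6 with ZBTB7A, 21.6 with HOXA11, 23.3 with RORA, 22.7 with TFCP2, 26.1 with NKX2-8 and 23.3 in the control library. The ratio in the E2F4 library was 2.40 (2.14 to 2.69), and the EGR1 library followed with 1.16 (1.02 to 1.33). CCNE2 overlaps INTS8 and NDUFAF6 on the plus strand, and its counts are uncertain, with the strand setting not given in the sources used here. In the E2F4 library INTS8 had 1669 counts and NDUFAF6 had 211, against 1698 and 239 in the control library, with ratios of 1.01 (0.945 to 1.08) and 0.909 (0.752 to 1.1). Both intervals included 1.

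The E-type cyclins rose by a similar factor, and their intervals in the E2F4 library overlapped. CCNE1 had 1.19 counts for each count of CCNE2 in the E2F4 library, 1.04 to 1.48 in the 7 other TF libraries and 1.39 in the control library. These ratios are of counts and are not adjusted for gene length.

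E2F1, the founding activator of the family, lies on the minus strand of chromosome 20 (32263489 to 32274210). It had 78.3 CPM with NRF1, 90.01 with E2F4, 88.6 with EGR1, 83.8 with ZBTB7A, 93.8 with HOXA11, 96.2 with RORA, 90.05 with TFCP2, 88.1 with NKX2-8 and 87.0 in the control library. It was lowest in the NRF1 library, with a ratio of 0.900 (0.835 to 0.970), and highest in the RORA library, with 1.11 (1.03 to 1.19). With library totals in place of TMM the ratio in the NRF1 library was 0.998. In the E2F4 library its ratio was 1.03 (0.965 to 1.11).

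E2F2, an activator, lies on the minus strand of chromosome 1 (23832922 to 23857712). It had 42.8 CPM with NRF1, 42.3 with E2F4, 40.7 with EGR1, 33.9 with ZBTB7A, 51.7 with HOXA11, 41.7 with RORA, 41.9 with TFCP2, 33.0 with NKX2-8 and 40.2 in the control library. The HOXA11 library was highest, with a ratio of 1.29 (1.16 to 1.42), and the ZBTB7A library (0.844, 0.752 to 0.948) and the NKX2-8 library (0.822, 0.733 to 0.923) were lowest. With E2F4 the ratio was 1.05 (0.950 to 1.17).

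E2F3, an activator on the plus strand of chromosome 6 (20402137 to 20493946), had the smallest SD of log2 CPM of the 10 genes over the 9 libraries. It had 83.9 CPM with NRF1, 75.5 with E2F4, 82.2 with EGR1, 80.9 with ZBTB7A, 83.2 with HOXA11, 85.9 with RORA, 82.4 with TFCP2, 79.6 with NKX2-8 and 77.9 in the control library. The E2F4 library was the lowest, with a ratio of 0.969 (0.899 to 1.04). The RORA library was the highest, with 1.1 (1.02 to 1.19).

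E2F5, the pocket protein partner most like E2F4, lies on the plus strand of chromosome 8 (86089460 to 86129387). It had 31.8 CPM with NRF1, 34.3 with E2F4, 33.7 with EGR1, 32.8 with ZBTB7A, 33.8 with HOXA11, 34.6 with RORA, 36.0 with TFCP2, 39.7 with NKX2-8 and 40.6 in the control library. All 8 TF libraries were below the control library, and the interval of the ratio lay below 1 in 7 of them. The ratio was 0.846 (0.759 to 0.943) in the E2F4 library and lowest in the NRF1 library, at 0.785 (0.700 to 0.880). Set against the mean of the control TF libraries, the ratio was 0.953 in the E2F4 library and 0.884 in the NRF1 library. E2F5 overlaps RBIS, which was also highest in the control library, at 47.7 CPM, with ratios of 0.912 (0.827 to 1.01) in the E2F4 library and 0.792 (0.713 to 0.880) in the NRF1 library.

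E2F6, a repressor on the minus strand of chromosome 2 (11584501 to 11606303), had 33.7 CPM with NRF1, 29.95 with E2F4, 31.2 with EGR1, 32.8 with ZBTB7A, 29.7 with HOXA11, 30.3 with RORA, 36.9 with TFCP2, 33.8 with NKX2-8 and 32.2 in the control library. It was highest in the TFCP2 library, with a ratio of 1.15 (1.02 to 1.28), the only TF library where the interval did not include 1. With E2F4 the ratio was 0.930 (0.826 to 1.05).

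RBL1, whose product p107 binds E2F4 and cyclin–CDK complexes, lies on the minus strand of chromosome 20 (35624752 to 35724398). It had 23.3 CPM with NRF1, 24.5 with E2F4, 24.5 with EGR1, 32.1 with ZBTB7A, 28.2 with HOXA11, 29.6 with RORA, 28.1 with TFCP2, 26.9 with NKX2-8 and 25.0 in the control library. The ZBTB7A library was highest, with a ratio of 1.29 (1.13 to 1.47), followed by the RORA library with 1.19 (1.04 to 1.35). With E2F4, which p107 binds, the ratio was 0.980 (0.858 to 1.12).

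**Figure D2:**
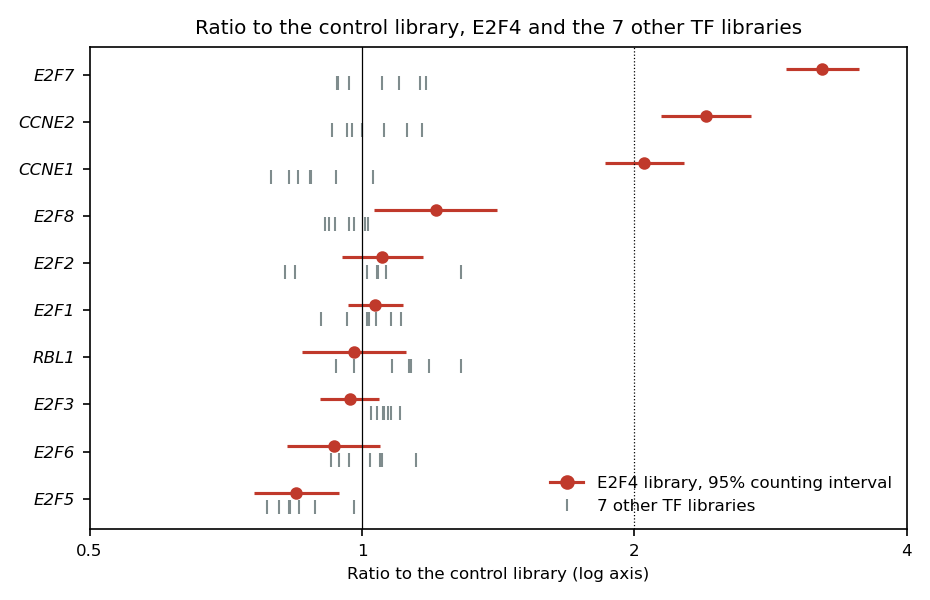
Ratio of each gene to the control library (x axis, log scale) in the E2F4 library (red points with exact binomial 95% intervals, counting error only) and in the 7 other TF libraries (grey ticks), with genes on the y axis in order of the E2F4 ratio. The dotted line is 2-fold. E2F7 (3.23), CCNE2 (2.40) and CCNE1 (2.05) lie right of it, and every grey tick lies between 0.785 and 1.29.

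The count of changed genes was set against all genes at 1 CPM or more in the higher library. The 10 genes were chosen with earlier results of these data known, so the shares and ranks here are a description and not a test. With E2F4, 3 of the 10 genes rose at least 2-fold, where 3.95% of 14193 genes did, and 4.38% changed either way. Among 9821 genes at 10 CPM or more in the control library, with the inserted E2F4 left out, the ratio of E2F7 ranked 16, that of CCNE2 41, that of CCNE1 76 and that of E2F8 1090. In the other TF libraries 0 of the 10 changed 2-fold. The share of all genes that did was 9.07% with NRF1, 3.11% with EGR1, 2.72% with ZBTB7A, 1.88% with HOXA11, 1.29% with RORA, 1.1% with TFCP2 and 4.3% with NKX2-8. The median log2 fold change of the 10 genes in the E2F4 library was 0.06, against -0.02 over all genes tested.

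**Figure D3:**
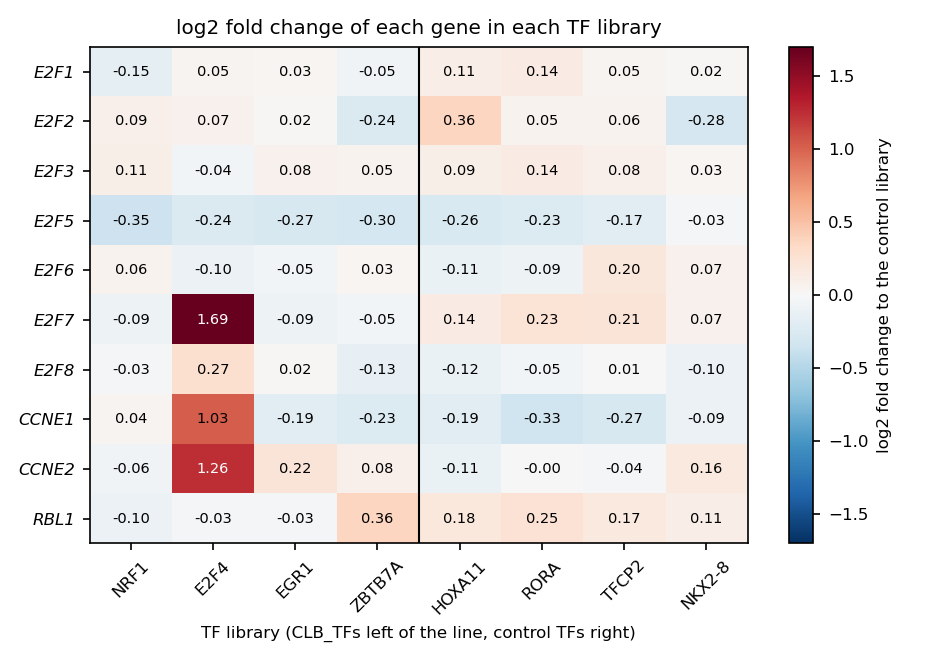
log2 fold change to the control library (colour and printed value) of the 10 genes (rows) in the 8 TF libraries (columns), CLB_TFs left of the line and control TFs right of it. The values over 1 are those of E2F7 (1.69), CCNE2 (1.26) and CCNE1 (1.03) in the E2F4 library.

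Each TF library was also compared with the 8 other libraries, which stood in for replicates, by the quasi-likelihood test of edgeR with Benjamini-Hochberg adjustment over all genes. This comparison was added after the data were seen, and the lone library was assumed to vary like the others. For the E2F4 library, E2F7 (log2 fold change 1.64, adjusted p = 2.24e-06), CCNE2 (1.23, adjusted p = 2.48e-05) and CCNE1 (1.2, adjusted p = 4.08e-05) passed at an adjusted p of 0.05, where 3.25% of 17225 genes passed in this edgeR test. E2F8 had a log2 fold change of 0.33 with an edgeR adjusted p of 0.235. Over 12 settings of this test, with other scalings, the Wald test of DESeq2 and each other library left out in turn, the highest adjusted p was 1.06e-05 for E2F7, 0.000102 for CCNE2 and 0.000356 for CCNE1. Of the other 6 genes none had an adjusted p under 0.748 in any of them.

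In the other 7 TF libraries edgeR called 0 of the 10 genes. At an unadjusted p of 0.05 it called 1 each in the NRF1, ZBTB7A, HOXA11 and NKX2-8 libraries and 0 in the EGR1, RORA and TFCP2 libraries. These were E2F1 in the NRF1 library (log2 fold change -0.18, edgeR adjusted p = 0.21), RBL1 in the ZBTB7A library (0.31, adjusted p = 1), E2F2 in the HOXA11 library (0.38, adjusted p = 1) and E2F2 in the NKX2-8 library (-0.35, adjusted p = 0.361). By p they ranked 2574, 264, 80 and 2122, in this order, of 17225 genes. The share of all genes at an unadjusted p of 0.05 is not given here, so these calls are not read as changes. The E2F4 library is among the 8 others in these comparisons. Without it, 0 genes of the 10 were called by edgeR in these 7 libraries, and at an unadjusted p of 0.05 E2F1, RBL1 and E2F2 were still called in the NRF1, ZBTB7A and HOXA11 libraries, each alone. The share of all genes called by edgeR at an adjusted p of 0.05 was 3.04% for NRF1, 0.302% for EGR1, 0.00581% for each of ZBTB7A, RORA and TFCP2, 0.0116% for HOXA11 and 0.0464% for NKX2-8.

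The 10 genes were compared between the 4 CLB_TF libraries and the 4 control TF libraries, the TF classes of the study. The edgeR quasi-likelihood test called 0 of the 10 genes, where 0.04% of 15012 genes were called. At an unadjusted p of 0.05 it also called 0 of the 10. CCNE1 had a log2 fold change of 0.50 (adjusted p = 0.496), CCNE2 of 0.49 (adjusted p = 0.51) and E2F7 of 0.45 (adjusted p = 0.682). The E2F4 library was the highest for all 3. The other CLB_TF libraries had 27.4 to 33.2 CPM of CCNE1 and 22.4 to 27.1 CPM of CCNE2, against 25.6 to 30.2 and 21.6 to 26.1 CPM in the control TF libraries, while their E2F7 level of 31.2 to 32.1 CPM was below the 35.0 to 39.1 CPM of the control TF libraries. With no filter on low counts edgeR called these 3 genes, with adjusted p of 2.4e-05 for CCNE1, 3.3e-05 for E2F7 and 0.00016 for CCNE2, and 795 of 35115 genes were called over the whole table, against 6 of 15012 with the filter. The Wald test of DESeq2 called 0 of the 10, with a lowest adjusted p of 0.661.

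Levels between genes were compared per length. Per kilobase of exon, E2F1 was highest in the control library, at 34.8 CPM, followed by E2F3 (15.1) and CCNE1 (12.6). E2F6 (7.91), E2F2 (7.36) and E2F5 (6.85) came next, and CCNE2 (5.29), E2F7 (5.27), RBL1 (4.19) and E2F8 (3.98) were the lowest. Over the 8 libraries other than that of E2F4, the ranges of E2F1, E2F3 and CCNE1 overlapped that of no other gene, while each of the other 7 genes overlapped its neighbours in this order. With E2F4, CCNE1 reached 25.9 CPM per kilobase, E2F7 17.0 and CCNE2 12.7. E2F7 and CCNE1 were there above the highest level of E2F3 in any library, 16.6 CPM per kilobase.

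Genes with a pattern most like that of the 3 that rose were found by Pearson's r of log2 CPM over the 9 libraries among 10902 protein-coding genes at a mean of 5 CPM or more. For E2F7 these were PAXIP1 (0.992), SPTAN1 (0.989) and RHOBTB2 (0.989). For CCNE2 they were CSGALNACT2 (0.985), ARG2 (0.976) and STMN3 (0.966), and for CCNE1 they were UBXN2A (0.985), DUSP4 (0.977) and ILK (0.975). The 9 points share libraries. Between the members that rose, r rested on the E2F4 library. E2F7 with CCNE2 had r = 0.922 over the 9 libraries and -0.42 without it, and CCNE1 with CCNE2 had 0.922 and -0.05. The 9 named genes had lower but still positive r with their member without the E2F4 library, 0.529 to 0.882, and these values are a description. Pearson's r does not measure the size of a change. In the E2F4 library the ratio to the control library was 4.95 for RHOBTB2 and 2.85 for DUSP4. The ratios of the other named genes were under 2-fold, from 1.30 for PAXIP1 to 1.84 for CSGALNACT2.

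The other genes of the pathway were taken as 8 lists with 74 genes. Of 72 tested, 1 changed at least 2-fold in the E2F4 library, where 4.38% of all genes did. This was CCND3, a D-type cyclin that activates CDK4 and CDK6 in G1. It had 53.1 CPM with NRF1, 151 with E2F4, 51.6 with EGR1, 48.9 with ZBTB7A, 63.3 with HOXA11, 55.2 with RORA, 48.1 with TFCP2, 63.7 with NKX2-8 and 49.9 in the control library. The ratio in the E2F4 library was 3.02 (2.80 to 3.26), close to that of E2F7. In the edgeR test of the E2F4 library against the 8 others, 3 of 73 genes tested passed, a share near the 3.25% of all genes. They were CCND3 (log2 fold change 1.48, adjusted p = 1.13e-05), CCNF (0.61, adjusted p = 0.000774) and TYMS (0.31, adjusted p = 0.0443), all higher, as were all 559 genes called in this comparison. CCNF is the F-box protein cyclin F, which marks activator E2Fs for degradation, and TYMS is thymidylate synthase. CCNF had 1869 counts (105 CPM) in the E2F4 library against 1264 counts (68.7 CPM) in the control library.

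Of 27 replication and nucleotide genes known as E2F targets, such as the MCM helicase, CDC6 and the ribonucleotide reductase subunits, 0 changed 2-fold in the E2F4 library, where 4.38% of all genes did. In a list of this size, 0 is near that share. The log2 fold changes of the 27 genes lay between -0.16 and 0.24 with a median of -0.08, against -0.02 over all genes. The largest was that of TYMS, with 3193 counts (179 CPM) in the E2F4 library and 2791 counts (152 CPM) in the control library, a ratio of 1.18 (1.12 to 1.24). In the NRF1 library the same 27 genes were all below the control library. Their log2 fold changes there were -0.48 to -0.02, with a median of -0.19 against -0.02 over all genes. The lowest was PRIM1, a primase subunit, with a ratio of 0.716 (0.650 to 0.789), and the only gene of the list that edgeR called in that library (log2 fold change -0.38, adjusted p = 0.0403). This is 1 of 27 genes, near the 3.04% of all genes called there. Scaling by library totals in place of TMM raised all log2 fold changes of the NRF1 library by 0.15, so falls smaller than that turn round with the scaling. The median of these 27 genes was below 0 in all 8 TF libraries. After NRF1 it was lowest with ZBTB7A (-0.11), and it was nearest to no change with NKX2-8 (-0.01).

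**Figure D4:**
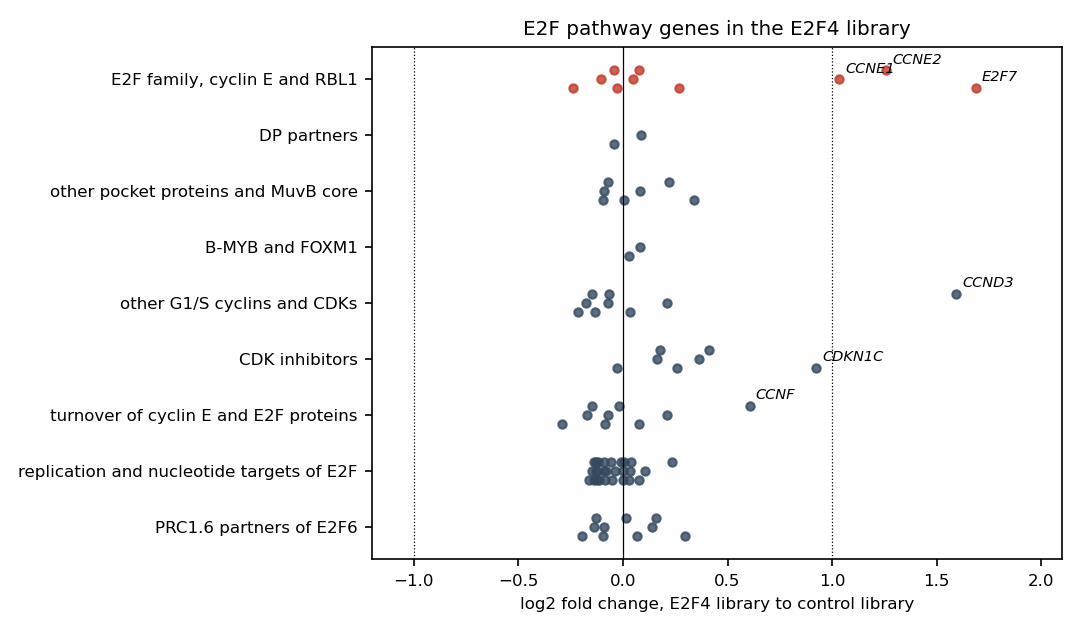
log2 fold change of the E2F4 library to the control library (x axis) for the 10 genes (red) and for 8 lists of other genes of the pathway (blue), 1 point per gene, spread vertically only to separate points. Dotted lines are 2-fold. CCND3 (1.59) is the only blue point beyond them, and the replication and nucleotide genes lie between -0.16 and 0.24.

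No gene of the DP, pocket protein, B-MYB and FOXM1 or Polycomb partner lists changed 2-fold in the E2F4 library, where 4.38% of all genes did. In lists this short, 0 is near that share. Of the DP partners, TFDP1 had a ratio of 1.06 (1.003 to 1.12) and TFDP3 had 0 counts in all libraries. Of 7 other pocket protein and MuvB genes none changed 2-fold, and LIN54, the DNA-binding subunit of MuvB, had the largest log2 fold change, 0.34 (edgeR adjusted p = 0.0608 against the 8 others). FOXM1, which drives genes of mitosis, had a log2 fold change of 0.08, and the largest in the Polycomb partners of E2F6 was that of YAF2, 0.30. With NRF1 the largest log2 fold changes of these lists were -0.23 for TFDP2, -0.17 for LIN54, -0.16 for FOXM1, -0.36 for CBX3 and, among the genes of cyclin E and E2F turnover, -0.39 for CKS1B. RB1 and RBL2 were named after their values were seen. RB1 had 66.3 CPM in the E2F4 library against 62.6 CPM in the control library, and RBL2, the gene of p130, had 59.4 CPM against 63.4 CPM.

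Among the 7 CDK inhibitor genes 0 changed 2-fold in the E2F4 library, near the 4.38% of all genes that did. CDKN1C, the gene of p57, had 20.3 CPM there against 10.7 CPM in the control library, a ratio of 1.91 (1.6 to 2.28). Against the 8 other libraries, the EGR1 library among them, its log2 fold change there was 0.27, and edgeR did not call it. CDKN1C was much higher in the EGR1 library, at 54.7 CPM, with a ratio of 5.13 (4.39 to 6.02) and an edgeR adjusted p of 0.00111 against the 8 others. CCNA1, a cyclin of the germ line, had 65 counts with NRF1 and 59 with EGR1, against 11 in the control library, with ratios of 6.85 (3.59 to 14.4) and 6.16 (3.21 to 13.0). In the other TF libraries it had 9 to 16 counts. The NRF1 and EGR1 libraries also had counts for the most genes, and a link was not tested. CDKN1C and CCNA1 were the only other genes of the lists that changed 2-fold in a TF library. Neither edgeR comparison of CCNA1 passed, and each held the other high library among its 8 references.

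Library depth was 14177970 to 18915400 counts. Counts were found for 26166 genes with NRF1 and 26296 with EGR1, which stand apart, and for 23344 to 24593 in the other 7 libraries. The genes of the 293T line VIM (13959 to 22612 counts), PAX2 (145 to 203) and SALL1 (439 to 666) were present in all libraries, whereas the leukocyte markers PTPRC, CD3E and CD68 had 0 to 1 counts and the hepatocyte marker TTR had 0. Of the fibroblast markers, COL1A1 had 368 to 621 counts, COL3A1 had 31 to 76 and COL1A2 had 0 to 4.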

How the data were processed

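RNA-seq of 9 libraries of 293T cells was used, 1 per condition. The authors used FastQC 0.11.2 for read quality, STAR 2.6.0c for mapping to GRCh37 and featureCounts 1.6.3 for counting, with uniquely mapped reads only. The deposited table holds raw counts of 57163 genes, not normalized by the authors, and a gene length. Per the labels the kit keeps strand, but with the setting of the counting not given in the sources used here, overlapping genes are uncertain. RNA extraction was by miRNeasy in the methods and by TRIzol in the labels.

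Gene identifiers were matched to GENCODE v44lift37, and 35408 of 36202 Ensembl identifiers had a symbol. TMM scaling to CPM was done in edgeR 4.0.16 under R 4.3.3, with a prior count of 2 for log2 fold changes. A gene was said to have changed at a ratio to the control library of 2-fold or more with at least 1 CPM in whichever library was higher. Intervals of ratios are exact conditional binomial (Clopper-Pearson) at 95% and cover counting error only. With 1 library per condition no p-value is given against the control library.

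The 4 CLB_TF and 4 control TF libraries were compared with the quasi-likelihood test of edgeR after filterByExpr, adjusted by Benjamini-Hochberg over all genes at 0.05. TFs take the place of replicates in it, and its p-values measure the spread between TFs. Nothing in the labels gives a batch. The test of each TF library against the 8 others was added after the data were seen.

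Alternatives were library totals and DESeq2 1.42.0 size factors, 1.5-fold and other minimum levels, a prior count of 0.5, the mean of the control TF libraries as reference, no filter, the DESeq2 Wald test and each library left out. All 10 genes are named. Of each pathway list the genes with a 2-fold change in any TF library are named, otherwise the gene with the largest absolute log2 fold change in the E2F4 and in the NRF1 library. The 3 genes most like a member were sought for the 3 members with the largest SD. The genes, the lists and the promoter words were chosen with earlier results of these data known. Promoter windows are from RefSeq, GRCh38.p14. E2F8 has no window here, and no sequence of E2F5 or CCNE2 is shown. A marker of the lists is not reported here.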

Additional observations from a re-analysis of the deposited data

Results flagged for a closer look

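In 4 of the 20 groups of 4 libraries that were examined (each gene in the CLB_TF and in the control TF libraries), the highest library lay apart from the other 3 by more than the 95% critical value of Dixon's test. Chance flags about 1 in 20 groups of independent replicates. These groups hold different TFs and share their libraries, so the count of flags is a description. The flags in the E2F4 library rest on the values given above. E2F7 had 107 CPM in the E2F4 library, and its gap to the next CLB_TF library was 0.988 of the range. CCNE2 had 55.8 CPM in the E2F4 library with a gap of 0.859 of the range, and CCNE1 had 66.2 CPM there with a gap of 0.852.

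RBL1 had 32.1 CPM in the ZBTB7A library, with a gap of 0.870 of the range to the next CLB_TF library. The control TF libraries had 26.9 to 29.6 CPM, so the ZBTB7A library was above all of them by less than it was above the other CLB_TF libraries.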

How the results depend on the processing

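The count of genes changed at least 2-fold stayed at 3 in the E2F4 library and at 0 in each of the 7 other TF libraries under library totals, DESeq2 size factors, a 1.5-fold threshold, other minimum levels and the mean of the control TF libraries as reference. No ratio of a changed gene turned its direction. Between CLB_TF and control TF libraries, 0 of the 10 genes were called under every alternative but that with no filter on low counts, which called 3. It tests more genes, 35115 against 15012, and the cause was not tested. Without each library in turn 0 were called (0 to 3 at an unadjusted p of 0.05), while the genes called over the whole table were 0 to 60, against 6 with all libraries (1 with library totals and 142 with the DESeq2 Wald test). In the E2F4 library against the 8 others, 3 of the 10 were called in all 12 settings, and the genes called over the whole table were 431 to 774. Of 80 ratios to the control library, 9 lay on the other side of 1 under library totals and 21 against the mean of the control TF libraries, so ratios near 1 have no fixed direction. No paired analysis was possible because the labels give no replicate numbers and each condition has 1 library. With 217 to 1916 counts per gene and library, differences within the counting intervals of the ratios were not detectable at this depth. Differences outside these intervals had no replicate check, because the intervals leave out the variation between libraries.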
